A study of Mus musculus with 8 samples.

Results

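Integrins, their matrix ligand fibronectin and the cytoplasmic proteins at integrin tails were followed in the mouse neuroblastoma line N2a after Emg1 was knocked down. EMG1 is an enzyme that methylates 18S ribosomal RNA. The 10 genes were chosen by name: the beta subunits Itgb1 and Itgb5, the alpha subunits Itga3, Itga5, Itga6 and Itgav, fibronectin (Fn1), talin-1 (Tln1), vinculin (Vcl) and focal adhesion kinase (Ptk2). All 10 were among the 16279 genes of the input RNA table, and 2 of them carried 1 peak each of the 2114 differential m6A peaks. The list was drawn up with earlier results of the same tables in view, among them the rise of Fn1 and the peak on Itgb1, so the values of its members are a description and support no statement about the pathway as a whole.

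Integrins are heterodimers of an alpha and a beta subunit that span the membrane and hold the cell to its matrix. Itgb1 pairs with Itga3, Itga5, Itga6 and Itgav, and Itgav also pairs with Itgb5. The receptor of Itga5 and Itgb1 is the classical fibronectin receptor, that of Itga6 and Itgb1 binds laminin, and that of Itgav and Itgb5 binds vitronectin. Talin binds the beta tail and switches the receptor on, vinculin reinforces the link of talin to actin, and focal adhesion kinase signals from the assembled site. Neuroblastoma cells use these receptors to attach, to migrate and to extend processes.

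The cells were transfected with a small interfering RNA (siRNA) against Emg1 or with a control siRNA and were collected 48 h later. Polyadenylated RNA was sequenced as input and after immunoprecipitation (IP) with an antibody against N6-methyladenosine (m6A), with 2 libraries each for Emg1 knockdown IP, Emg1 knockdown input, control IP and control input. The labels give 1 cell line and are silent on whether replicate libraries stem from different cultures, so p-values may measure technical spread only. The tables hold the outcome of the authors' tests and no value per library, so the depth of each library is unknown and the replicate spread of a gene is known only through the standard error (SE) of its fold change.

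In input RNA, Emg1 itself stood at 30.2% of control in the authors' deposited table, a log2 fold change of -1.73 ± 0.11 (SE, adjusted p = 3.37e-54 by DESeq2). Its negative value is the reason for reading all fold changes as knockdown over control, since the table names no direction. At an adjusted p under 0.05, 32.6% of the 12807 genes with an adjusted p were called, 17.1% higher and 15.5% lower. Of the 11134 with a mean normalized count of at least 100, 36.5% were called in either direction. The line was checked against its identity genes. Of the 17 sympathoadrenal and neuronal markers read from the table, 15 had a mean normalized count of at least 100, while Nefm had a mean of 1.32. These markers moved with the contrast too: 9 of 16 with an adjusted p rose and 2 fell (56.2% and 12.5%, beside 17.1% and 15.5% of all genes). In the authors' deposited table the transcription factor genes Insm1 and Phox2a rose to 227.1% and 150.6% of control and the adhesion molecule gene Ncam1 to 148.2%, and the tubulin-binding protein gene Stmn2 fell to 63.8%. Their part in the changes of adhesion genes was not tested. Of 13 fibroblast markers, 6 (Col1a2, Col3a1, Lum, Thy1, Postn and Fap) were not listed, and 5 (Fn1, Pdgfra, Acta2, Pdgfrb and Col6a1) reached a mean of 100. Of 11 endothelial and leukocyte markers, 2 reached a mean of 100. Of these 2, Cd74, the invariant chain of antigen presentation, fell to 59.9% of control and the other did not pass in the authors' deposited table.

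Of the 10 genes, Fn1, Tln1 and Itga6 rose, Itgb5 fell, and 6 did not pass the threshold. That is 3 higher, beside 17.1% of all genes, and 1 lower, beside 15.5%, and nothing is read from these shares because the genes were chosen with the contrast known. Their median log2 fold change was -0.05, and that of all genes with an adjusted p was -0.0023. The means of the 10 genes ran between 259 and 37194 normalized counts, and their SEs between 0.05 and 0.22. These means depend on transcript length and were not compared between genes.

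Fibronectin, the ligand, had the largest change of the list. Its gene Fn1 (RefSeq span chr1:71585473-71653280, mm10) encodes a secreted glycoprotein that cells assemble into matrix fibrils. Fn1 stood at 154.3% of control (95% interval 144 to 165), a log2 fold change of 0.63 ± 0.05 (SE, DESeq2 adjusted p = 3.21e-32) in the authors' deposited table. By fold change it ranked 226th from the top among 11134 genes with a mean of at least 100. Fn1 is also a fibroblast marker. Of the other 6 listed fibroblast markers, 0 rose, 2 fell and 4 did not pass, beside 17.1% higher and 15.5% lower of all genes. With 6 genes nothing is read from this count. Smooth muscle actin Acta2 was at -0.96 ± 0.15 and the growth factor receptor Pdgfrb at -0.98 ± 0.19 on the log2 scale (SE) in the authors' deposited table. Among those that did not pass, Pdgfra had a mean of 1357 and Col1a1 one of 33.7 normalized counts. In a bulk sample a change in the number of cells of a type and a change in RNA per cell cannot be told apart.

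Of the 6 receptor subunits, Itga6 rose, Itgb5 fell and 4 did not pass. Itgb1 (chr8:128685654-128733579), the shared beta partner, was at 104.6% of control (97.7 to 112), a log2 fold change of 0.07 ± 0.05 (SE, DESeq2 adjusted p = 0.345) in the authors' deposited table. With its SE, the smallest change the threshold could have called was 1.09-fold. Its laminin-binding partner Itga6 (chr2:71786886-71858427) rose to 115% of control (105.1 to 126), at 0.20 ± 0.07 (log2, SE, DESeq2 adjusted p = 0.01) in the authors' deposited table. Itgb5 (chr16:33829665-33949338) fell to 85.9% of control (77.2 to 95.5), at -0.22 ± 0.08 (log2, SE, DESeq2 adjusted p = 0.0191) in the authors' deposited table. These last 2 changes were each smaller than the median absolute log2 fold change of called genes, 0.38. Neither was called at an adjusted p under 0.01.

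Itga3, which pairs with Itgb1 in a laminin receptor, was at 77.5% of control (62.0 to 97.0), with a log2 fold change of -0.37 ± 0.17 (SE, DESeq2 adjusted p = 0.0735) in the authors' deposited table. Itga5 of the fibronectin receptor was at 88.2% of control (65.5 to 119), with an SE of 0.22 and a DESeq2 adjusted p of 0.579 in the authors' deposited table. With means of 404 and 259 normalized counts these 2 genes were the least precisely measured of the list: only changes of at least 1.32-fold for Itga3 and 1.44-fold for Itga5 could have been called. Itgav, the partner of Itgb5 in the vitronectin receptor, was at 89.9% of control (81.2 to 99.6), at -0.15 ± 0.08 (log2, SE, DESeq2 adjusted p = 0.105) in the authors' deposited table. The 95% intervals here are not adjusted for the number of genes, which is why that of Itgav leaves out 100% of control while its adjusted p misses the threshold.

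At the cytoplasmic side, Tln1 mRNA rose and the mRNAs of Vcl and Ptk2 did not pass. Tln1 (chr4:43531513-43562583) stood at 128.2% of control (117.8 to 139), a log2 fold change of 0.36 ± 0.06 (SE, DESeq2 adjusted p = 1.32e-07) in the authors' deposited table. Vcl, which binds stretched talin, was at 102.6% of control (93.1 to 113, DESeq2 adjusted p = 0.749) in the authors' deposited table. Ptk2 (chr15:73205102-73423820) was at 91.5% of control (83.5 to 100.4), at -0.13 ± 0.07 (log2, SE, DESeq2 adjusted p = 0.14) in the authors' deposited table.

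**Figure D1:**
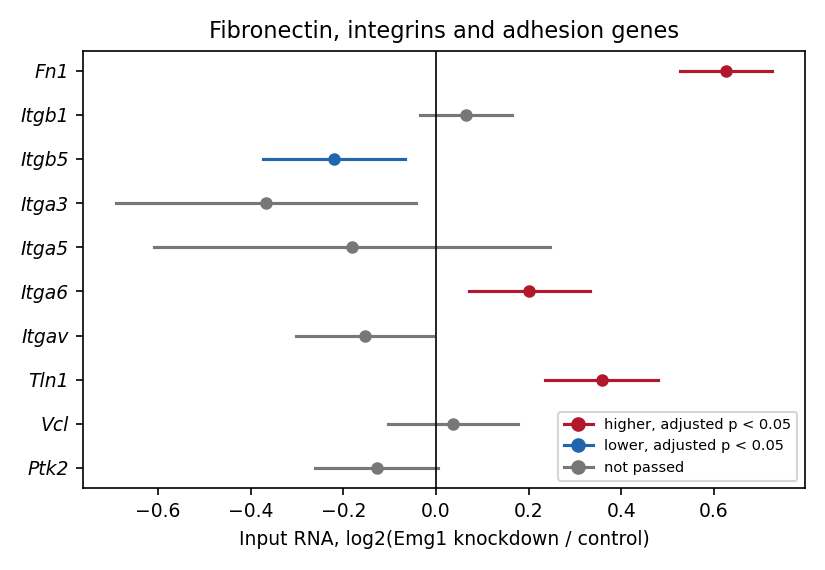
Input RNA log2 fold change of Emg1 knockdown over control (x axis) for the 10 genes (y axis), with points for the fold change and lines for the 95% interval from the authors' SE. Fn1 at 0.63 and Tln1 at 0.36 lie farthest to the right, Itga6 and Itgb5 lie at 0.20 and -0.22, and the intervals of Itga3 and Itga5 are the widest.

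The rest of the integrin family was read from a list of all 26 mouse subunit genes. Of these, 22 were listed in the table and 18 had an adjusted p. Itga6 was the only one of the 18 that rose, a call lost at an adjusted p under 0.01, and 6 fell: Itgb3, Itga7, Itga8, Itga2, Itga2b and Itgb5. This is 5.56% higher and 33.3% lower, beside 17.1% and 15.5% of all genes, and the median log2 fold change was -0.17, beside -0.0023 for all genes. No test of the list was made.

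Itgb3, the beta subunit that pairs with Itgav and with Itga2b, stood at 41.8% of control, a log2 fold change of -1.26 ± 0.09 (SE, DESeq2 adjusted p = 7.61e-40) in the authors' deposited table. Its platelet partner Itga2b was at -0.82 ± 0.30 (log2, SE, DESeq2 adjusted p = 0.0211) with a mean of 128 normalized counts in the authors' deposited table; it was named after its values were seen. Partners of Itgb1 fell as well: the laminin-binding subunit Itga7 to 57.8% of control, at -0.79 ± 0.13, and Itga8, which binds nephronectin, to 57.6%, at -0.80 ± 0.14 on the log2 scale (SE) in the authors' deposited table. The collagen-binding subunit Itga2 fell to 68.4% of control (-0.55 ± 0.17, log2, SE, DESeq2 adjusted p = 0.00549) in the authors' deposited table. In size, the log2 change of each of these 5 genes exceeded that of all 6 subunits among the 10 genes, whose changes lay between -0.37 and 0.20. The 5 were named because they passed. With SEs of 0.17 and 0.30, Itga2 and Itga2b could pass only with changes larger than those of the 6 subunits. For these genes the difference in size follows from the choice. The leukocyte subunits Itgad, Itgam and Itgax, and Itgb8, were not listed, and Itgb2, the beta subunit of leukocytes, had a mean of 9.54 normalized counts.

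Matrix genes that passed were mostly higher. Of 37 matrix ligands and basement membrane genes, 20 had an adjusted p, 10 rose and 2 fell (50% and 10%, beside 17.1% and 15.5% of all genes), and without Fn1 these were 9 and 2 of 19. The median log2 fold change was 0.23. Perlecan (Hspg2), a basement membrane proteoglycan, rose to 168.4% of control, at 0.75 ± 0.07 on the log2 scale (SE) in the authors' deposited table. The fibronectin-binding protein gene Fbln1 rose to 145.9% of control, at 0.54 ± 0.05, and the laminin gamma chain gene Lamc1 to 138%, at 0.46 ± 0.05 on the log2 scale (SE) in the authors' deposited table. Col4a2, a collagen IV chain, rose to 132.8% of control, at 0.41 ± 0.05 on the log2 scale (SE) in the authors' deposited table. The genes that fell were Npnt, which encodes nephronectin, at -0.99 ± 0.15, and Mfge8, a ligand of Itgav receptors, at -0.35 ± 0.14 on the log2 scale (SE) in the authors' deposited table; they were named after their values were seen. Npnt and its receptor subunit Itga8 were thus both among the genes that fell.

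**Figure D2:**
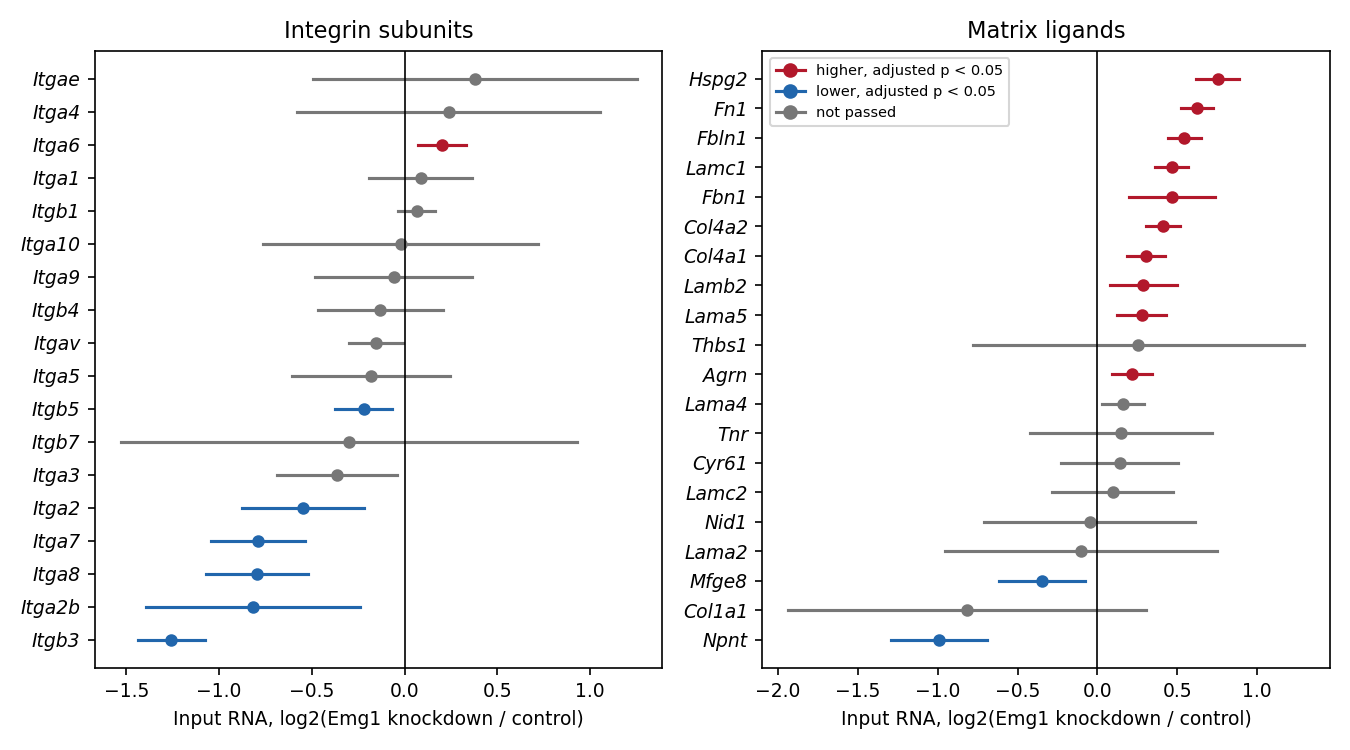
Input RNA log2 fold change of Emg1 knockdown over control (x axes) for the 18 integrin subunits and the 20 matrix ligands with an adjusted p (y axes), each panel sorted by fold change, with lines for the 95% interval. Subunits that passed lie mostly to the left of 0, down to Itgb3 at -1.26, and matrix genes that passed lie mostly to the right, up to Hspg2 at 0.75.

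Adaptors that tie integrin tails to actin divided evenly. Of 29 with an adjusted p, 7 rose and 7 fell, with a median of 0.01 (24.1% each way, beside 17.1% and 15.5% of all genes). The actin crosslinker gene Actn1 rose to 130.6% of control, at 0.38 ± 0.06, and filamin A (Flna) fell to 76.2%, at -0.39 ± 0.05 on the log2 scale (SE) in the authors' deposited table. Vasp, an actin polymerization factor, fell to 77.2% of control, at -0.37 ± 0.07 on the log2 scale (SE) in the authors' deposited table. Parvb fell by 0.33 ± 0.08 in the authors' deposited table; it belongs to the complex of integrin-linked kinase, PINCH and parvin. Chosen after their values were seen, the other called genes of that complex were Ilk at -0.20 ± 0.06, Parva at -0.25 ± 0.08 and Lims1 at -0.71 ± 0.20 on the log2 scale (SE) in the authors' deposited table. The related genes Parvg and Rsu1 did not pass, and Lims2 had no adjusted p. The second talin gene, Tln2, also chosen afterwards, rose with Tln1, at 0.31 ± 0.11 (log2, SE, DESeq2 adjusted p = 0.0147) in the authors' deposited table.

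In the signalling list of kinases, scaffolds and exchange factors, 7 of 22 rose and 5 fell (31.8% and 22.7%, beside 17.1% and 15.5% of all genes, median 0.11). At an adjusted p under 0.01 the 5 became 3. Bcar1, the docking protein p130Cas that is phosphorylated downstream of Ptk2 and Src, rose to 123.8% of control, at 0.31 ± 0.07 on the log2 scale (SE) in the authors' deposited table. The Ras exchange factor gene Sos1 rose to 130.2% of control, at 0.38 ± 0.08, and Asap1, a GTPase-activating protein of Arf that binds Ptk2, to 123.2%, at 0.30 ± 0.07 on the log2 scale (SE) in the authors' deposited table. Elmo2, a partner of Dock exchange factors, fell to 71% of control, at -0.49 ± 0.08 on the log2 scale (SE) in the authors' deposited table.

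Among regulators of integrin activation and trafficking and their membrane partners, 0 of 20 rose and 4 fell by the authors' DESeq2 adjusted p (20% lower, beside 15.5% of all genes, and 0% higher, beside 17.1%), with a median of -0.09. At an adjusted p under 0.01 the 4 became 2, without Rab11a and Mdga1. Cd47, a membrane partner of Itgav and Itgb3, fell to 71.7% of control, at -0.48 ± 0.07, and the tetraspanin gene Cd151, a partner of laminin-binding integrins, to 83.3%, at -0.26 ± 0.06 on the log2 scale (SE) in the authors' deposited table. Rab11a, which recycles integrins, fell by 0.26 ± 0.09 in the authors' deposited table. Mdga1, a membrane-anchored adhesion protein whose place in that list is weak, was at -1.02 ± 0.38 with a mean of 74.2 normalized counts in the authors' deposited table. At an unadjusted p under 0.05, 1 of the 20 was higher. Over all 5 lists, which hold 128 distinct listed genes, 25 of 109 rose and 24 fell (22.9% and 22%, beside 17.1% and 15.5% of all genes). Without the 10 genes, 22 of 99 rose and 23 fell (22.2% and 23.2%). Most listed genes of each list had a mean of at least 100. Of all genes with such a mean, 36.5% were called in either direction, beside 32.6% of all genes.

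**Figure D3:**
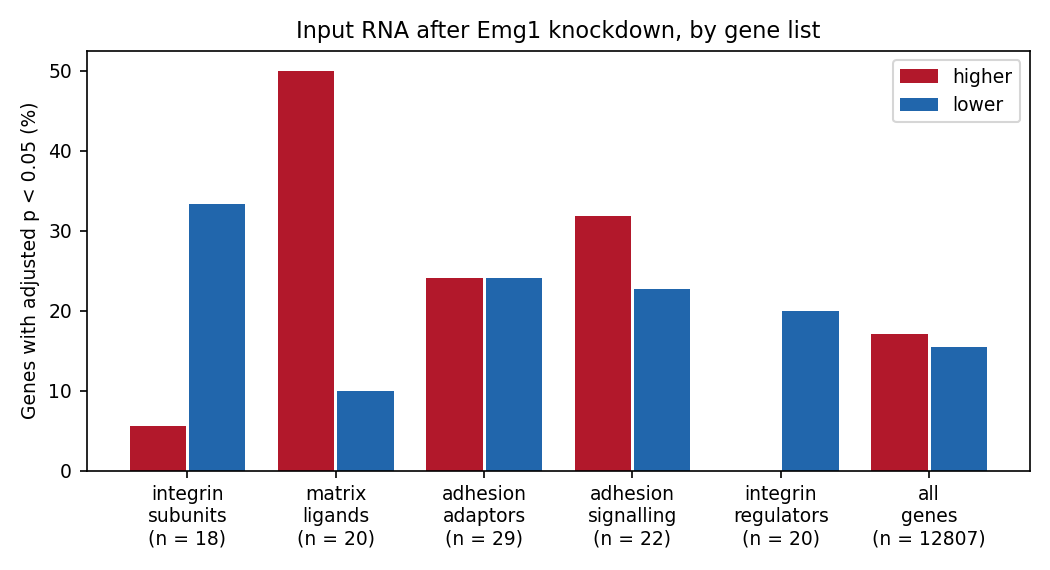
Share of genes with an adjusted p under 0.05 in input RNA (y axis, percent) that were higher (red) or lower (blue) after Emg1 knockdown, for the 5 adhesion lists and for all genes (x axis, with the number of genes that had an adjusted p). Matrix ligands have 50% higher and 10% lower, integrin subunits 5.56% higher and 33.3% lower, and all genes 17.1% and 15.5%.

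Differential m6A peaks lay on Itgb1 and Ptk2, and the other 8 genes had none in the authors' list. Such a peak was carried by 11.7% of all genes measured in input, and by 16.9% of those with a mean of at least 100, as all 10 genes have. Of all differential peaks, 53.1% had a negative and 46.9% a positive change, and the 2 peaks here were 1 of each. The change of a peak is a log2 value between conditions whose numerator is not stated, so its sign is given as deposited and is not read as gain or loss. The table gives a false discovery rate and no error for a change. Antibodies against m6A also bind m6Am, the methylated adenosine next to the cap of many mRNAs, and the peak table does not separate the 2 marks.

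The peak on Itgb1 had a change of -5.86 with a false discovery rate of 2.51e-12 in the authors' deposited table, the second lowest change of all 2114 peaks after that on Ctnnb1 at -6.26. It covers chr8:128685744-128685864 on the plus strand of mm10, 121 bases in 1 block, and begins 90 bases after the annotated RefSeq start of the gene. It was short and weakly enriched: its length was at percentile 3 and its fold enrichment, 2.65 in the authors' deposited table, at percentile 25.5 of all differential peaks. The mRNA itself did not pass in input, at 0.07 ± 0.05 (log2, SE). Whether the peak lies in coding or untranslated sequence was not analysed here.

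The peak on Ptk2 had a change of 0.46, the opposite sign, with a false discovery rate of 9.77e-07 in the authors' deposited table. It covers chr15:73205105-73206151 on the minus strand of mm10, 1047 bases in 1 block, and ends 3 bases before the annotated end of the gene, with its midpoint at 99.8% of the gene span. Its fold enrichment of 14 in the authors' deposited table was at percentile 75.5, and by size of change it ranked 853rd of 991 positive-change peaks. The 2 peaks thus lay at opposite ends of their genes, on an mRNA at 104.6% and one at 91.5% of control, neither of which passed in input.

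Few differential peaks lay as close to a gene start as that on Itgb1. Of 2026 peaks with the midpoint inside the RefSeq span of the gene named, 91 had it within 500 bases of the gene start, and 87 of these had a negative change, 95.6%, beside 52.7% of the 1737 peaks farther than 500 bases from either end. Their median change was -1.39, median length 271 bases and median fold enrichment 3.28, where the peaks away from both ends had medians of -0.30, 1583 bases and 6.14. Of the 61 placed peaks with a change of -2 or lower, 29 were at gene starts, and Itgb1 ranked second among them after Ctnnb1. Of 201 peaks with the midpoint within 500 bases of the gene end, 63.2% had a positive change, and with windows of 250 and 1000 bases the shares were 55.3% and 58.3%. The Ptk2 midpoint lay 526 bases from the gene end and so just outside that window. These are descriptions of a list chosen by its changes, with no test. The peak on Itgb1 was known beforehand, and it and that on Vasp are counted among the 91.

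Among genes of the 5 adhesion lists, 1 other peak had its midpoint within 500 bases of a gene start, that on Vasp. Peaks of several blocks on Actn1 and Crkl began 199 and 448 bases after the gene start and had midpoints farther in, since the distance includes introns. The Vasp peak covers chr7:19271558-19271854 on the minus strand of mm10 and begins at the annotated start of the gene. It had a change of -2.37 and a fold enrichment of 4.47 in the authors' deposited table. In input, Vasp mRNA fell to 77.2% of control, and Itgb1 mRNA was at 104.6%. The 250 bases before the start of these 2 genes are printed because both peaks lie just downstream of them. They come from RefSeq (GRCm38.p6, the same assembly as mm10), run 5′ to 3′ on the gene's strand, and cover chr8:128685404-128685653 (plus strand) for Itgb1 and chr7:19271855-19272104 (minus strand) for Vasp. Capitals mark a GC box, GGGCGG on either strand.
Itgb1: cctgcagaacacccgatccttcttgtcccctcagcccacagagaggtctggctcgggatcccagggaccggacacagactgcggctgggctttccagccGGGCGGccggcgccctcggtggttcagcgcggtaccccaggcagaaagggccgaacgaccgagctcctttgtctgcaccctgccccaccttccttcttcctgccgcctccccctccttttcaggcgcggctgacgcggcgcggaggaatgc
Vasp: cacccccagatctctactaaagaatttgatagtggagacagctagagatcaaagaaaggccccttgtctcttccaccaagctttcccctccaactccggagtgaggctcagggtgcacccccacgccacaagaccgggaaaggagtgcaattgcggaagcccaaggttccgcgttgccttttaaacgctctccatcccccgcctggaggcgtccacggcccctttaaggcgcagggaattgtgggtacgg
The Itgb1 window held 1 GC box and was 68% G and C, and the Vasp window held 0 and was 57.2% G and C. A GC box was found in 32.7% of all 32851 RefSeq windows of this length. Of the 10 genes, 7 had 8 windows in RefSeq, of which 6 held a GC box, with Itga3 counted more than once. The Itgav window and the Itga3 window at chr11:95069199-95069448 lie inside the annotated gene span. The count was not tested. A match is a description of the letters and not a binding site.

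**Figure D4:**
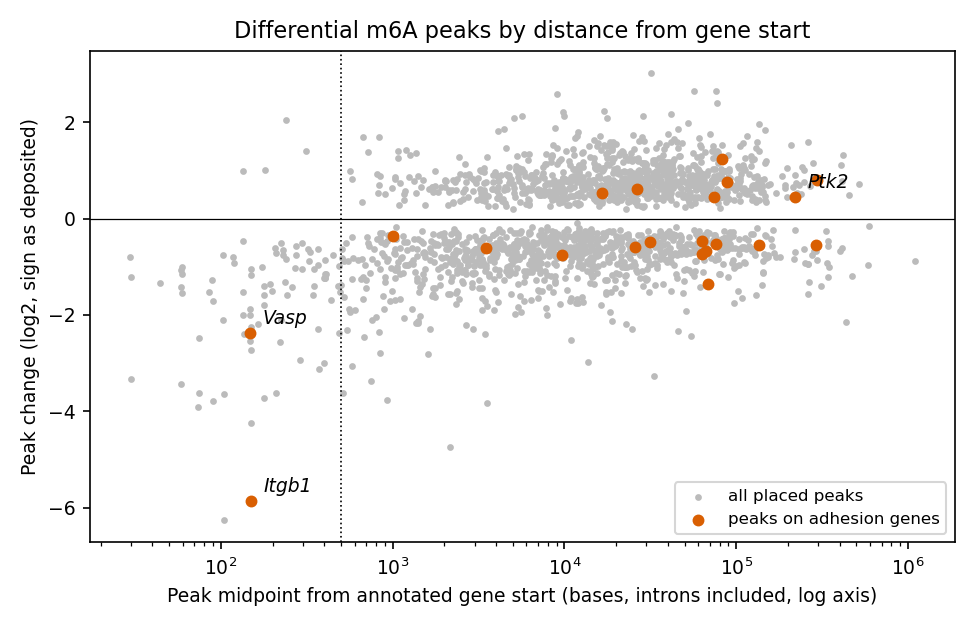
Change of each placed differential m6A peak (y axis, log2, sign as deposited) against the distance of its midpoint from the annotated gene start (x axis, bases, log scale, introns included), with peaks on genes of the 5 adhesion lists in orange and a dotted line at 500 bases. Itgb1 at -5.86 and Vasp at -2.37 lie left of the line, and Ptk2 at 0.46 lies far to the right.

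In all, 19 of the 128 listed adhesion genes carried 21 differential peaks. This is 14.8%, beside 11.7% of all genes and 16.9% of those with a mean of at least 100. Of the 21 peaks, 14 had a negative and 7 a positive change, beside 53.1% and 46.9% of all peaks. The signalling list held 9 of the 19 genes among its 25, the adaptors 5 of 32, and the integrin subunits 1 of 22. The peak on Sos1 had the highest positive change, 1.24, and after Itgb1 and Vasp the lowest was that on Actn4 at -1.36 in the authors' deposited table. The remaining 17 peaks lay between -0.75 and 0.80. Asap1 carried a peak of each sign, 0.80 and -0.54, and Rock2, a kinase of actomyosin contraction, carried peaks of -0.74 and -0.67 in the authors' deposited table. Fn1, Tln1, Itga6 and Itgb5, which passed in input, carried no differential peak, and Itgb1 and Ptk2, which carried one, did not pass in input.

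**Figure D5:**
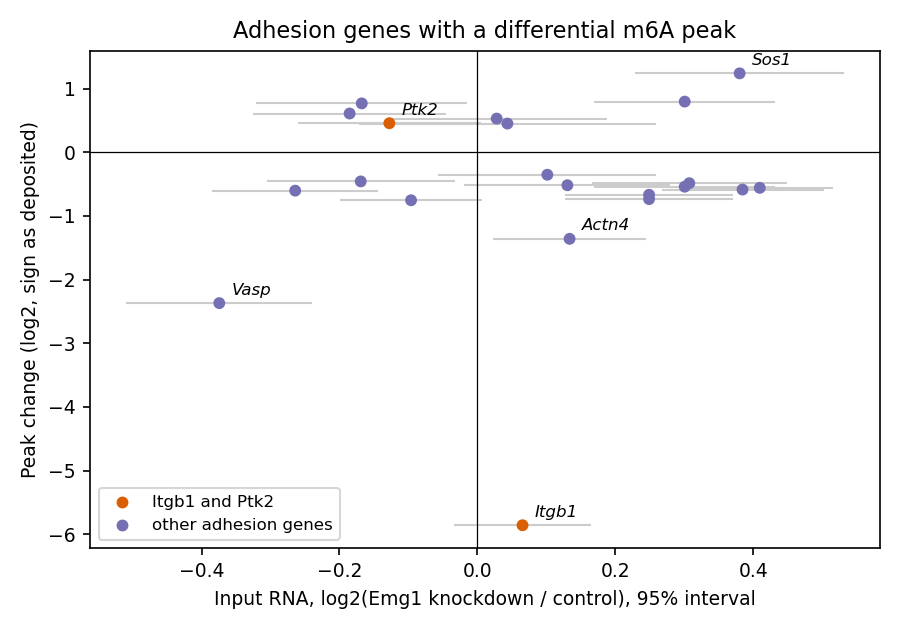
Change of the 21 differential m6A peaks on adhesion genes (y axis, log2, sign as deposited) against the input RNA log2 fold change of the same gene after Emg1 knockdown over control (x axis), with 95% intervals of the input change as grey lines. Itgb1 lies near 0 on the input axis and at -5.86 on the peak axis, apart from the other points, and Vasp is low on both.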

How the data were processed

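The submitters' processing notes name Trimmomatic, HISAT2, DESeq2 and mm10. Not given in the sources used here: the read counter, peak caller, annotation and versions. For input RNA the authors deposited DESeq2 results: a mean normalized count (a signal), a log2 fold change with its SE, a Wald score, and a p-value with its adjusted value. For each differential peak they deposited a fold enrichment (a ratio), a log2 change, scores that are log10 of p-values and false discovery rates, and a count of blocks. No model was refitted: the authors' adjusted p under 0.05 decided the calls. Depth is unknown, and precision is the deposited SE (median 0.10 at means of at least 100), from which normal 95% intervals were computed. Members and lists were chosen with earlier results of these data known. Named genes were the members, Emg1 and up to 4 called genes per list with the smallest adjusted p. Ccn1 was matched through its older symbol, Cyr61. Computation used Python 3.11.15 with pandas 2.3.3, numpy 2.4.6, matplotlib 3.10.9 and scipy 1.17.1.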

Additional observations from a re-analysis of the deposited data

How the results depend on the processing

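Under 6 alternatives, 55 of the 60 values for single members kept their side of the threshold. Of the alternatives, 5 reuse the deposited fold change and centring moves it by 0.01, so the sign of a member could hardly change. The calls of Fn1 and Tln1 held under all 6. At an adjusted p under 0.01, and when a change of at least 1.2-fold was also required, Itga6 (adjusted p = 0.01) and Itgb5 (adjusted p = 0.0191) were no longer called, so that 2 members were higher and 0 lower. At an adjusted p under 0.1 Itga3 (adjusted p = 0.0735) was also called, which made 2 members lower. Adjustment over all genes with a p-value, centring (the median change was 0.01 above a mean of 100) and a minimum mean of 100 changed no member's call. The 25 higher and 24 lower genes of the 5 adhesion lists became 20 and 16 at an adjusted p under 0.01 and 29 and 26 at 0.1. By list, an adjusted p under 0.01 left 0 of the 1 higher integrin subunit, 1 of the 2 lower matrix ligands, 3 of the 5 lower signalling genes and 2 of the 4 lower regulators. The peaks on Itgb1 and Ptk2 stayed with a false discovery rate under 0.01 and with a fold enrichment of at least 2. The grouping of peaks by gene start was made with the peak on Itgb1 already known. With windows of 250 and 1000 bases, chosen after seeing the data, 95% and 90.1% of peaks at gene starts had a negative change. No paired analysis was possible because the tables hold no values per library, and leaving out a replicate was not run for the same reason. The depth of each library is unknown. Itga3 and Itga5 had the largest SEs of the 10 genes and the lowest means.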
